A study of Mus musculus with 12 samples.

Results

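Cytosolic ribosomal proteins are the protein subunits of the ribosomes that translate messenger RNA in the cytoplasm. Their genes were taken by name: symbols that start with Rpl or Rps and a digit, with Rplp0, Rplp1, Rplp2 and Rpsa added. Pseudogenes marked -ps and the S6 kinases (Rps6k) were left out. This gave 86 of the 23845 genes in the tables, and the mRNA level of each was measured by RNA sequencing in 12 libraries.

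The libraries came from C57BL6/J mice aged 3 to 4 months and fall into 4 groups of 3. WT animals were wild type and untreated, and WT-LPS animals were wild type and received lipopolysaccharide (LPS), a component of the outer membrane of bacteria, 24 h before the cells were taken. CPEB1-KO animals are labelled as knockouts of CPEB1, a protein that binds the cytoplasmic polyadenylation element of mRNAs and controls their poly(A) tails and translation, and CPEB1-KO-LPS animals carry the same label and received LPS. Microglia, the macrophages that live in the brain, were enriched on Percoll density gradients, 1 animal for each library, and total RNA was sequenced after poly(A) selection. The knockout allele, the cells in which it acts, the LPS dose and the sex of the animals are not stated in the labels.

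A ribosome holds a small subunit, which decodes the mRNA, and a large subunit, which joins amino acids. Each ribosomal protein is needed in a fixed number of copies, and the mRNAs of these genes are among the most abundant of most cells. In mammals they start with a run of pyrimidines (C or T in the gene), the terminal oligopyrimidine tract, through which mTORC1 and the RNA-binding protein LARP1 control their translation. Activated macrophages, microglia among them, change their metabolism and protein synthesis after LPS, and MYC is a known activator of ribosome production.

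The pyrimidine run is the sequence feature the family is known for, so the DNA around the annotated start was read from RefSeq (GRCm38.p6, the mm10 assembly) for the 65 of 86 members with an entry. Each window holds 15 bases before the start and 15 from it, on the strand of the gene. A run of at least 8 C or T lay in the window of 27 of the 65 members, or 41.5%. The share was 14.9% of 11428 other genes tested and 13.9% of all 27022 genes in the table. The longest run in a window had a median of 7 bases for members and 5 for the other genes. Capitals mark the run in the 30 bases shown 5′ to 3′ for 5 members that the results turn on, and Rps28 and Rps21, which held no such run in this window, follow without capitals.
Rps27 (chr3:90213634-90213663, minus strand): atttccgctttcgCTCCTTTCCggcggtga
Rps6 (chr4:86857353-86857382, minus strand): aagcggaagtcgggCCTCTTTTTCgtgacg
Rpl13a (chr7:45128731-45128760, minus strand): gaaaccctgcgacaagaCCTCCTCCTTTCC
Rps27l (chr9:66946071-66946100, plus strand): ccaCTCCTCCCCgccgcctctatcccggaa
Rpl22l1 (chr3:28805493-28805522, plus strand): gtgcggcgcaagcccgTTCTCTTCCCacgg
Rps28 (chr17:33824548-33824577, minus strand): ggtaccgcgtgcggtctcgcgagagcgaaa
Rps21 (chr2:180257364-180257393, plus strand): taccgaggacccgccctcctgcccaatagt
The run lay at the start itself in Rps6 and Rps27, and upstream of it in Rps27l. A match or its absence describes these letters at the annotated start only.

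Expected counts summed to between 5.02 M and 13.5 M per library (M, 1000000 counts), and WT replicates 2 and 3 were the shallowest. Cpeb1, the targeted gene, was present in every library, at 15.5 to 43.2 transcripts per 1000000 transcripts (TPM) in WT, 24.1 to 45.1 in WT-LPS, 17.6 to 26.4 in libraries labelled CPEB1-KO and 24.0 to 40.6 in those labelled CPEB1-KO-LPS. The values are for the whole gene and do not show whether a deleted part is missing, so they check the labels in neither direction, and knockout groups are named here as labelled. Markers of microglia were above 0 in all libraries for 10 of 10 genes, with a summed level of 5536 to 6504 TPM in WT, 1042 to 4931 in WT-LPS, 2678 to 4196 in CPEB1-KO and 765 to 2928 in CPEB1-KO-LPS. Markers of neurons were above 0 in all libraries too, for 12 of 12 genes, and summed to 1486 to 4255, 2330 to 6535, 4351 to 5998 and 2761 to 5119 TPM in the same order. Choroid plexus markers summed to 4436 to 7776, 1125 to 2303, 7165 to 9157 and 2519 to 3723 TPM. The share of counts from haemoglobin genes lay between 1.04% and 1.63% in WT, 0.129% and 0.228% in WT-LPS, 0.576% and 0.847% in CPEB1-KO, and 0.146% and 1.5% in CPEB1-KO-LPS. The preparations therefore held RNA of several cell types, and in such bulk samples fewer cells of a type and less RNA per cell cannot be told apart.

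Ribosomal protein transcripts made up between 12.8% and 29.0% of all TPM in a library. In WT the share was 15.7%, 29.0% and 22.6% in replicates 1, 2 and 3. In WT-LPS it was 12.8%, 17.6% and 14.4%, in CPEB1-KO 18%, 15.7% and 15.6%, and in CPEB1-KO-LPS 14.3%, 15.7% and 16.8%. WT replicates 2 and 3 were the highest of the 12 libraries, while WT replicate 1 lay within the range of the other groups. The group means were 22.4% ± 6.64 in WT, 14.9% ± 2.48 in WT-LPS, 16.4% ± 1.39 in CPEB1-KO and 15.6% ± 1.26 in CPEB1-KO-LPS (SD, n = 3 each). The spread within WT was thus as wide as the distance from WT to the other groups. The same libraries stood apart in the neuron markers: their mean log2 CPM (counts per 1000000 counts, scaled by TMM) was 7.54 and 7.55 in WT replicates 2 and 3, against 8.73 in WT replicate 1 and 7.96 to 9.10 in the other 9 libraries. The part of this difference in cell content, or of depth, in the ribosomal protein level was not tested.

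**Figure D1:**
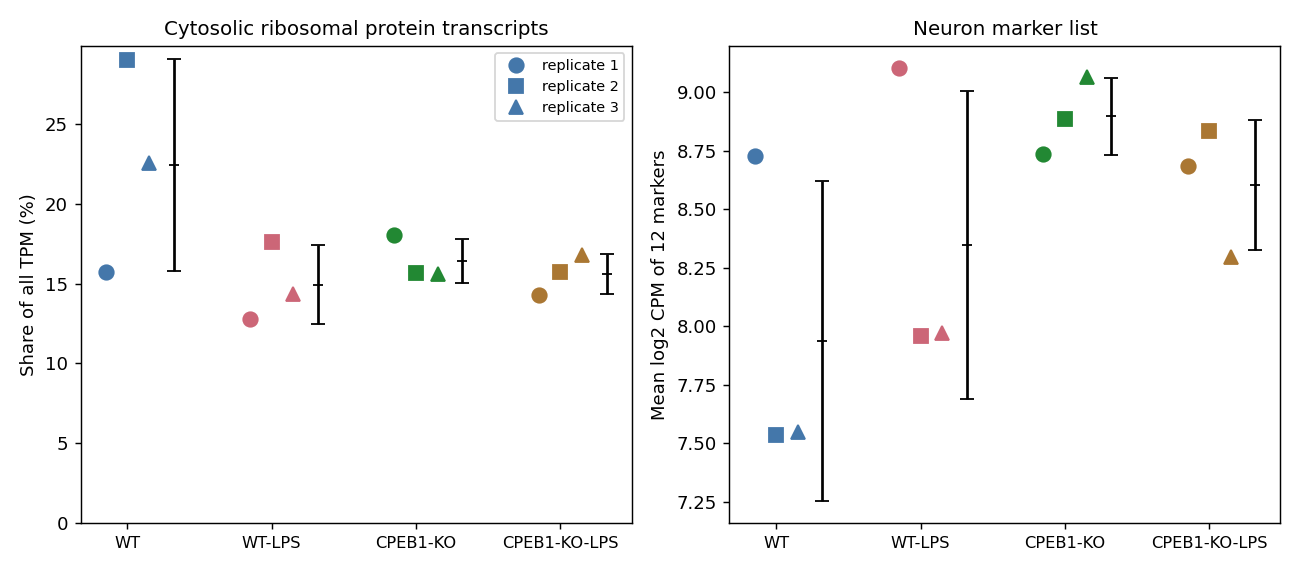
Share of all TPM held by the 86 cytosolic ribosomal protein genes (left, percent) and mean log2 CPM of 12 neuron markers (right), 1 point per library with the mean and SD of each group (n = 3). WT replicates 2 and 3 were highest on the left, at 29.0% and 22.6%, and lowest on the right, at 7.54 and 7.55.

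Levels per transcript differed widely within the family, although the ribosome uses nearly all of its proteins in equal number. Rps29, a zinc-binding protein of the small subunit, had the highest mean over the 12 libraries, 11302 TPM, with a range of 6470 to 22502. Rps27 followed at 9652 TPM, Rps21 at 7966, Rpl38 at 6517, Rplp1 at 5850 and Rpl41, one of the shortest proteins known in mammals, at 4954. At the lower end of the core proteins were Rpl5 at 490.0 TPM, Rpl15 at 378, Rpl22 at 143 and Rps15a at 102. In WT replicate 1, Rps15a had a log2 CPM of 8.17, close to the 8.19 of Rps13, whose mean was 1581 TPM. The listed lengths are 5179 nucleotides for Rps15a and 589 for Rps13, so the place of Rps15a depends on the length used. The 10 highest genes held 35.4% of all ribosomal protein TPM. The ranges of neighbours in this order overlapped, as those of Rps29 and Rps27 (5184 to 20833 TPM) show. TPM divides by transcript length, and many of these genes have near-identical processed pseudogenes with which reads can be shared, so differences of level between members are uncertain.

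The 6 lowest places in the order were held by 4 paralogs and the 2 genes that only share the name. Rpl10l, a copy of Rpl10 known from the testis, was listed at 0 in all 12 libraries, and Rpl3l, the copy of Rpl3 used in striated muscle, was at 0.13 to 1.5 TPM. These were the only members that did not pass the filter on low counts, which left 84. Rpl39l, a copy of Rpl39 known from male germ cells, passed it at 0.24 to 6.43 TPM. Rpl7l1 and Rps19bp1, nucleolar factors and not ribosome subunits, had means of 39.6 and 48.0 TPM. Rps4l, a copy of Rps4x, was at 43.6 to 131 TPM. The other paralogs, Rpl22l1, Rpl36al and Rps27l, had means of 691, 674 and 254 TPM, above several core proteins.

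LPS in wild-type animals was accompanied by lower CPM of nearly the whole family. Of the 84 members tested, 24 fell and 0 rose past a false discovery rate (FDR) of 0.05 in edgeR's quasi-likelihood test. With same-numbered wild-type libraries as a block, a fit chosen after seeing the data, 56 fell and 0 rose, beside 18% of all genes lower. The 24 are 28.6% of members, beside 14.9% of all 15295 genes called lower and 12.4% called higher. The log2 fold change was below 0 for 82 of 84 members, as for 51.4% of all genes, and its median was -0.79, beside -0.03 over all genes. It ranged from -1.65 to 0.04, and 60 members had an unadjusted p under 0.05. The members share libraries and are not independent, and the share of all genes at that p is not given here. The CPM values of the groups did not overlap, with WT-LPS lower, for 24 members, beside 20.1% of all genes. By mean TPM most members were lower too, but some core proteins were higher in WT-LPS than in WT. Among them were Rps2 (1755 against 1357), Rpl4 (1197 against 1026) and Rpl8 (1694 against 1560).

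In the small subunit 7 of 31 genes fell, and the 4 with the strongest evidence were short proteins. Rps27 (ENSMUSG00000090733.6, chromosome 3, 90212522 to 90213651) was at 7533, 20833 and 17325 TPM in WT replicates 1 to 3 and at 5494, 7588 and 5966 in WT-LPS. WT replicate 1 thus lay within the WT-LPS range by TPM and far below the other WT libraries. The log2 fold change of Rps27, a zinc-finger protein, was -1.65 ± 0.36 (SE, adjusted p = 0.00569). Rps28 was at 3182, 6018 and 3919 TPM in WT and at 1760.0, 2611 and 2029 in WT-LPS, so that all WT-LPS libraries were lower. It fell by 1.43 ± 0.32 on the log2 scale (adjusted p = 0.00584). Rps29 was at 11832, 22502 and 15601 TPM in WT and at 6470, 9687 and 7346 in WT-LPS, again without overlap. Its change was -1.48 ± 0.33 (adjusted p = 0.00611). Rps21 changed by -1.34 ± 0.31 (adjusted p = 0.00769), with 7907, 14390.4 and 10325 TPM in WT and 4785, 6669.8 and 5449.6 in WT-LPS. In each of these genes WT replicate 2 was the highest library. With WT replicates 2 and 3 left out, the log2 changes of Rps27, Rps28, Rps29 and Rps21 were -0.41, -0.76, -0.73 and -0.63, and none of the 4 was called.

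Rps6, Rpsa and Rps19, also of the small subunit, were not called. Rps6 encodes the substrate of the S6 kinases. Phosphorylation of that protein, not measured here, is the usual readout of mTORC1 activity. The Rps6 mRNA was at 740.0, 1093 and 885 TPM in WT and 678, 971 and 814 in WT-LPS, which overlap (-0.53 ± 0.31, adjusted p = 0.224). Rpsa, also known as the laminin receptor, was at -0.25 ± 0.33 (adjusted p = 0.596). Rps19, mutated in Diamond-Blackfan anaemia, was at -0.89 ± 0.36 (adjusted p = 0.0805). The sign of Rpsa turned when WT replicate 2 was left out (0.15) and in a test on log2(TPM + 1) (0.13). On that TPM scale the median over all genes moved up too, to a value given below.

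In the large subunit 14 of 43 genes fell. Rpl37a (chromosome 1, 72711290 to 72713813) was at 2544, 5634 and 4302 TPM in WT and at 1838, 2434 and 1879 in WT-LPS. The groups did not overlap, although WT replicate 1 came close to the highest WT-LPS library, and the change was -1.42 ± 0.34 (adjusted p = 0.009). Rpl39, which lines the exit tunnel for the new protein chain, fell by 1.31 ± 0.33 (adjusted p = 0.0112). Rpl38, studied for its part in the translation of Hox mRNAs, fell by 1.12 ± 0.28 (adjusted p = 0.0111). Rpl13a, known from the GAIT complex that silences inflammatory mRNAs in interferon-treated myeloid cells, fell by 1.19 ± 0.36 (adjusted p = 0.0261). Rpl22 fell by 0.94 ± 0.28 (adjusted p = 0.0271). Without WT replicate 2 these 4 genes were at -0.89, -0.69, -0.76 and -0.55 and were not called. Rpl13a was lost also without WT replicate 3 (-1.20), WT-LPS replicate 1 (-1.04) or WT-LPS replicate 3 (-1.13). Rpl22 was lost without either of those WT-LPS libraries (-0.80 and -0.85), and Rpl38 without WT-LPS replicate 3 (-1.0).

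Rpl5 and Rpl11 bind MDM2 together with the smallest ribosomal RNA of the large subunit when ribosome assembly is disturbed. They were at -0.68 ± 0.33 and -0.69 ± 0.32 and were not called (adjusted p = 0.14 and 0.119). Rpl3, at the peptidyl transferase centre, was at -0.47 ± 0.26 (adjusted p = 0.186), and Rpl10, which joins late in assembly, was at -0.79 ± 0.33 (adjusted p = 0.0904).

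The stalk is the arm of the large subunit that recruits the translation factors. Its protein Rplp1 fell by 1.21 ± 0.37 (adjusted p = 0.0268), from 5630.5, 10694 and 8163 TPM in WT to 3528, 5658 and 4734 in WT-LPS. By TPM the highest WT-LPS library was just above WT replicate 1. Its partner Rplp2 was at -0.89 ± 0.35 (adjusted p = 0.0731) and their anchor Rplp0 at -0.09 ± 0.39 (adjusted p = 0.881). Rplp0 was at 714, 1188 and 985 TPM in WT and at 734, 1570.2 and 1217 in WT-LPS, so the groups overlapped. The sign of Rplp0 turned in several settings, for example to 0.25 on log2(TPM + 1) and to 0.29 without WT replicate 2. On log2(TPM + 1) the median over all genes moved up too, as given below. The call of Rplp1 was lost without WT replicate 2 (-0.77), WT-LPS replicate 1 (-0.96) or WT-LPS replicate 3 (-1.18). Whether the stalk genes differed from one another in their response was not tested.

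Within wild type, deviations of same-numbered libraries from their group means correlated at 0.38, 0.15 and 0.18. Correlations between other groups reached 0.22, above 0.15 and 0.18, so these values do not settle a pairing, and the labels state none. The comparison was also fitted with the pairs of equal number as a block. In that fit 56 of 84 members fell and 0 rose, the 24 among them, beside 18% of all genes lower, with a median of -0.73. By log2 CPM, 80 members were lower with LPS in each of the 3 pairs, as were 30.8% of all genes, and the median difference of members was -0.39, -0.96 and -0.85 in pairs 1, 2 and 3. Among the genes named above, Rps19 (-0.80, adjusted p = 0.0344), Rpl10 (-0.75, adjusted p = 0.0187), Rpl11 (-0.63, adjusted p = 0.0497) and Rplp2 (-0.87, adjusted p = 0.0299) were called in the block fit of edgeR, and Rps6, Rpsa, Rpl3, Rpl5 and Rplp0 were not. This fit was chosen after seeing the data, from correlations in these same libraries. A replicate block over all 4 groups gave 21 calls, beside 13.2% of all genes called lower.

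The count of 24 in the fit without the block depended on the libraries. It was 5 without WT replicate 2 and 7 without WT-LPS replicate 3, beside 11.4% and 9.17% of all genes called lower. It was 11 without WT-LPS replicate 1 and 58 without WT replicate 1, beside 12.5% and 15.6% of all genes. Without WT replicates 2 and 3, which left 1 WT library whose spread was taken from the other groups, 0 of 84 members were called and their median was -0.05, beside 2.14% of all genes called lower. With the mean of the neuron markers as a covariate, 19 members were called, 18 of them among the 24, with a median of -0.48. In that fit 16.4% of all genes were called lower. Other marker lists moved in the same comparison: in edgeR's test 5 of 10 microglia markers, 4 of 4 erythroid, 6 of 6 choroid plexus, 4 of 10 oligodendrocyte, 3 of 4 B cell and 3 of 8 T and NK cell markers tested were lower. There 4 of 6 monocyte markers were higher (summed, 45.3 to 63.8 TPM in WT and 244 to 501 in WT-LPS), as was 1 of 8 astrocyte markers, and of 8 endothelial and mural markers 4 were higher and 1 lower. No neutrophil marker was called (0 of 7, by DESeq2 also 0, and 1 with an unadjusted p under 0.05), and 0 of 12 neuron markers were called, while 1 had an unadjusted p under 0.05 and DESeq2 called 1. Their part in the ribosomal protein values was not tested. On log2(TPM + 1), limma called 9 members, all among the 24, with a median of -0.37, while the median over all genes moved up to 0.28 and the split of all calls from 1900 higher and 2285 lower to 3380 and 1087.

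**Figure D2:**
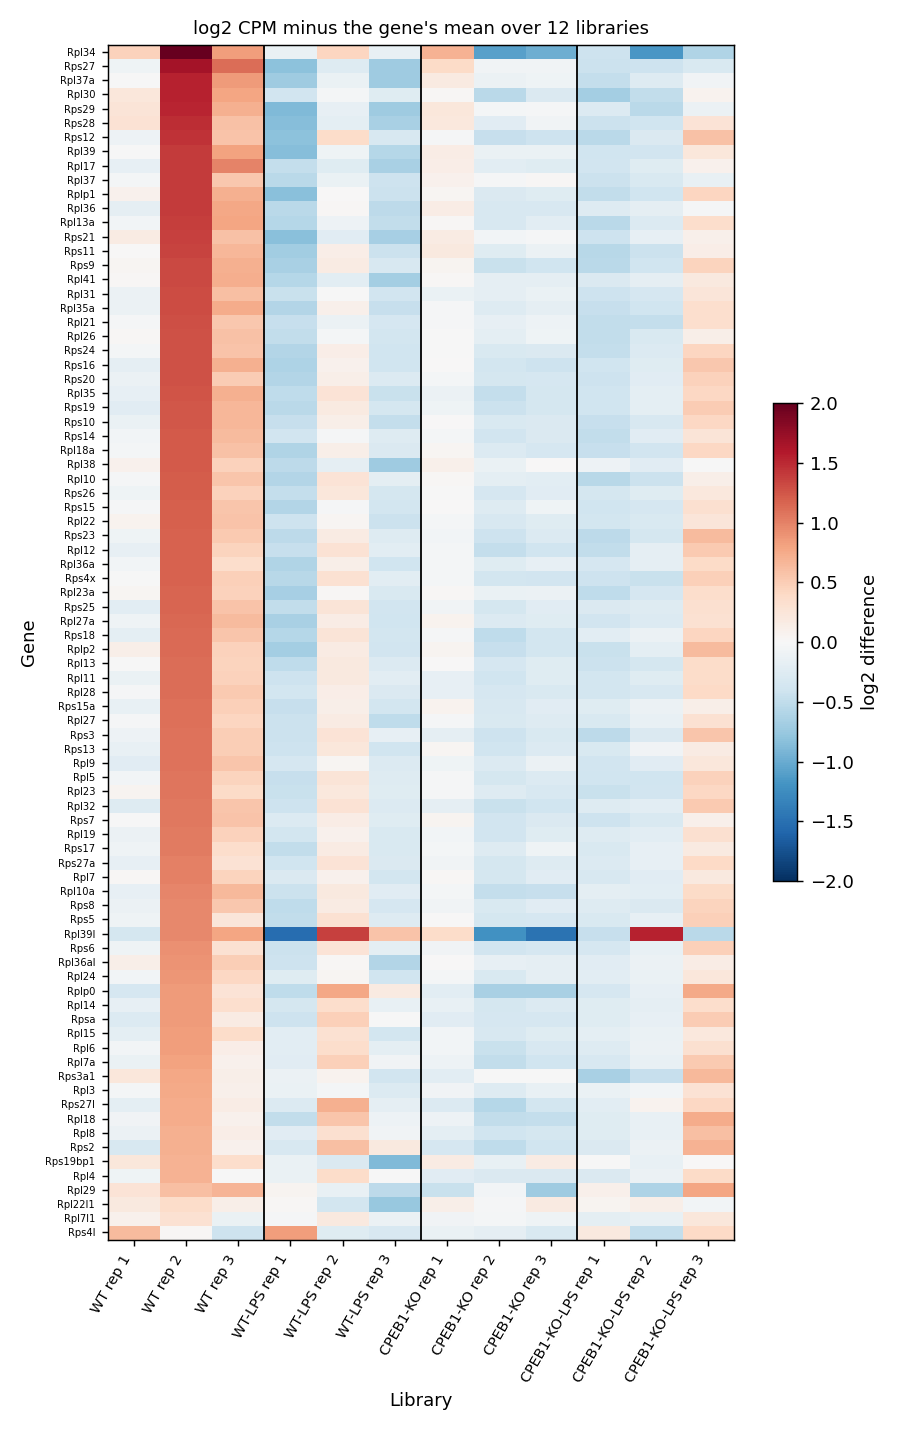
log2 CPM of each of the 84 tested members minus its mean over the 12 libraries (colour, log2 difference), with libraries in columns by group and genes in rows ordered by their value in WT replicate 2. Nearly all rows are high in WT replicates 2 and 3, while WT replicate 1 is close to the mean of each gene.

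In animals labelled CPEB1-KO, no member of the family passed the test after LPS. In CPEB1-KO-LPS against CPEB1-KO, edgeR's test called 0 of 84 members, beside 6.22% of all genes (4.1% higher and 2.12% lower). No member reached an unadjusted p under 0.05 (0 of 84), and DESeq2 and limma also called 0. The median log2 fold change was 0.13, beside -0.00 over all genes, and 19 of 84 members were below 0, beside 7650 of all 15295 genes. The values ranged from -0.48 to 1.53, the highest being that of the barely expressed Rpl39l. Groups did not overlap for 3 members with LPS lower and 2 with LPS higher, beside 16.5% and 18.9% of all genes.

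Values of single members in the knockout groups differed in sign. Rps27 was at 12413, 9701 and 8981 TPM in CPEB1-KO and at 6869, 7941 and 5184 in CPEB1-KO-LPS. The LPS libraries were all lower, yet the change of -0.48 ± 0.36 did not pass (adjusted p = 0.488). Rplp0 was at 815, 656 and 635 TPM and at 830, 919 and 1389 with LPS (0.66 ± 0.40, adjusted p = 0.377). CPEB1-KO-LPS replicate 3, whose haemoglobin share was 1.5% against 0.146% and 0.242% in the other 2 libraries of its group, had the highest mean log2 CPM of members in that group, 8.82 against 8.17 and 8.27. Without it the median of members was -0.11.

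**Figure D3:**
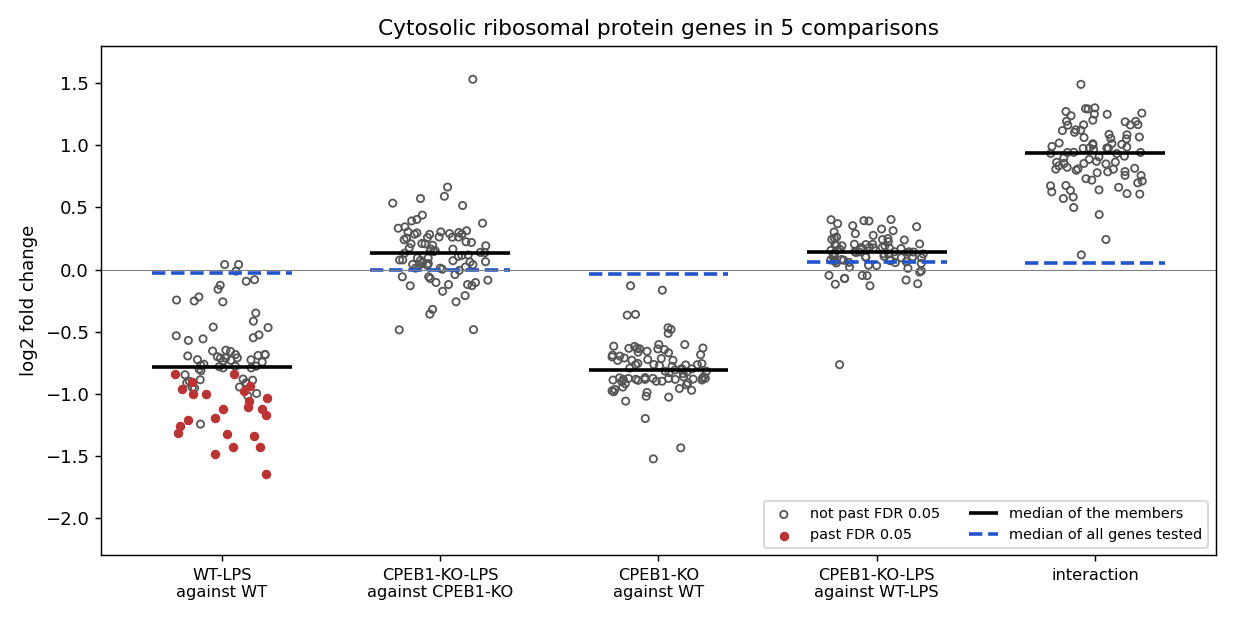
log2 fold change of each of the 84 tested members (points, filled where past FDR 0.05) in the 4 comparisons of groups and the interaction, with the median of members (solid line) and of all genes tested (dashed line). Members lie mostly below 0 in both comparisons against WT, near 0 in the other comparisons of groups and above 0 in the interaction.

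Without LPS, the log2 fold change of libraries labelled CPEB1-KO against WT was below 0 for all 84 members, but none passed the test. By mean TPM 2 members were higher in CPEB1-KO, Rpl22l1 (784 against 673) and Rpl7l1 (40.0 against 35.6). In CPEB1-KO against WT, edgeR's test called 0 of 84 members, beside 0.0327% of all genes, and DESeq2 called 1. An unadjusted p under 0.05 was found for 66 members, which share the same WT libraries and are not independent. The share of all genes at that p is not given here. The median log2 fold change was -0.81, beside -0.03 over all genes, 52.5% of which were below 0. The groups did not overlap for 27 members, with CPEB1-KO lower, beside 13.9% of all genes. The lowest adjusted p was 0.146, for Rpl30 (-1.20 ± 0.32), a large-subunit protein that is named here after its value was seen. Rpl30 was at 2208, 4158 and 3070.2 TPM in WT and at 2095, 1536 and 1753 in CPEB1-KO.

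The values came close to those of WT-LPS against WT for many members, and both comparisons share the WT libraries. Between CPEB1-KO and WT, Rps27 was at -0.97, Rplp1 at -0.98, Rplp2 at -0.88, Rplp0 at -0.83, Rpl39 at -0.88, Rpl38 at -0.67, Rpl13a at -0.99 and Rpl22 at -0.88. Rps6 was at -0.70, Rpsa at -0.62, Rps19 at -0.96, Rpl5 at -0.77, Rpl11 at -0.84, Rpl3 at -0.48 and Rpl10 at -0.79. None of these 15 values passed (adjusted p from 0.184 to 0.334). Without WT replicate 1 the count rose from 0 to 37, and the share of all genes called in that setting is not given here. Without WT replicates 2 and 3 the median of members was -0.12. With the neuron markers as a covariate the median of members was -0.13.

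After LPS, no member differed between the genotypes past the threshold. In CPEB1-KO-LPS against WT-LPS, edgeR's test called 0 of 84 members, beside 0.00654% of all genes. No member had an unadjusted p under 0.05 (0 of 84), and DESeq2 and limma called 0. The median was 0.14, beside 0.06 over all genes, and 12 of 84 members were below 0, beside 44.4% of all genes. Rps27 was at 0.19 ± 0.35 (adjusted p = 0.856). The groups did not overlap for 1 member, Rpl34, with CPEB1-KO-LPS lower, beside 5.72% of all genes, and for 0 with it higher, beside 8.49%. Rpl34, a large-subunit protein named for that separation, was at 1316, 1761 and 1337 TPM in WT-LPS and at 1070.3, 654 and 716 in CPEB1-KO-LPS (-0.76 ± 0.49, adjusted p = 0.566). It was at 2229.6 TPM in CPEB1-KO replicate 1 and at 687 and 706 in the other CPEB1-KO libraries.

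The difference between the LPS responses was tested as the interaction: the log2 change with LPS in knockout, less the log2 change with LPS in wild type. Of the 84 members, 0 had a value below 0, beside 47.0% of all genes, with a median of 0.94 beside 0.05 over all genes. edgeR's test called 0 of 84 members, beside 0.00654% of all genes, DESeq2 called 0, and 36 members had an unadjusted p under 0.05. These members too are not independent, and the share of all genes at that p is not given here. The lowest adjusted p was 0.221, for Rpl41 (1.29 ± 0.43), chosen after its value was seen. Rpl41 was at 4601, 8618 and 7063 TPM in WT, 3594, 4152 and 3394 in WT-LPS, 5110.1, 4783 and 4514 in CPEB1-KO and 4314, 4855 and 4453 in CPEB1-KO-LPS. The 3 WT libraries span a wider range than the other 9 together. For the fixed members, the interaction was 1.16 ± 0.50 for Rps27, 1.27 ± 0.51 for Rplp1, 1.19 ± 0.46 for Rpl39, 1.25 ± 0.50 for Rpl13a, 1.01 ± 0.39 for Rpl38, 1.01 ± 0.40 for Rpl22 and 0.76 ± 0.56 for Rplp0. Without WT replicates 2 and 3 the value of Rps27 turned to -0.06. A difference between the responses was therefore not called for any member by edgeR or DESeq2. Without WT replicate 1, 3 members were called higher, and the share of all genes called in that setting is not given here. Without WT replicates 2 and 3 the median was 0.22.

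Shorter members had lower values in WT-LPS against WT. Members are short, with a median of 831.5 nucleotides (371 to 5179, from GENCODE M21), beside 2968 for the other genes tested. For some members these lengths differ from those behind the deposited TPM. In WT replicate 1, Rps20, listed at 3706 nucleotides, had a log2 CPM of 8.07 and 1622 TPM. Rps13, listed at 589, had 8.19 and 1334 TPM, so the TPM treated Rps20 as the shorter. The length sets, rho and length offsets below are uncertain for such members. In WT-LPS against WT, the 21 shortest members (371 to 577 nucleotides) had a median log2 fold change of -1.0, and 13 of them fell. The next 3 sets of 21 had medians of -0.79, -0.72 and -0.70, with 4, 5 and 2 genes called. Spearman's rho of length and log2 fold change was 0.44 across the 84 members, which are not independent and share libraries. Other genes of the same lengths moved the same way: their medians were -0.66, -0.69, -0.50 and -0.05, and 37.0%, 39.8%, 28.7% and 15% of them were called lower. Genes longer than any member had a median of 0.28. The members in the longest set, 1052 nucleotides and over, were thus lower at the median than the other genes of that range, most of which are far longer than most of these members. When the trend with length was taken out of each library, 1 member was called, none of the 24, and the median of members was -0.14.

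In CPEB1-KO-LPS against CPEB1-KO the same sets of members had medians of 0.01, 0.14, 0.22 and 0.18, and the other genes of those lengths -0.11, -0.09, 0.00 and 0.01. Against WT, members in CPEB1-KO were at -0.87, -0.81, -0.80 and -0.80 and other genes at -0.32, -0.23, -0.22 and -0.04. There the members' medians barely changed with length, and they were lower than those of other genes in each set. With the trend in length taken out, the median of members in that comparison was -0.53.

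**Figure D4:**
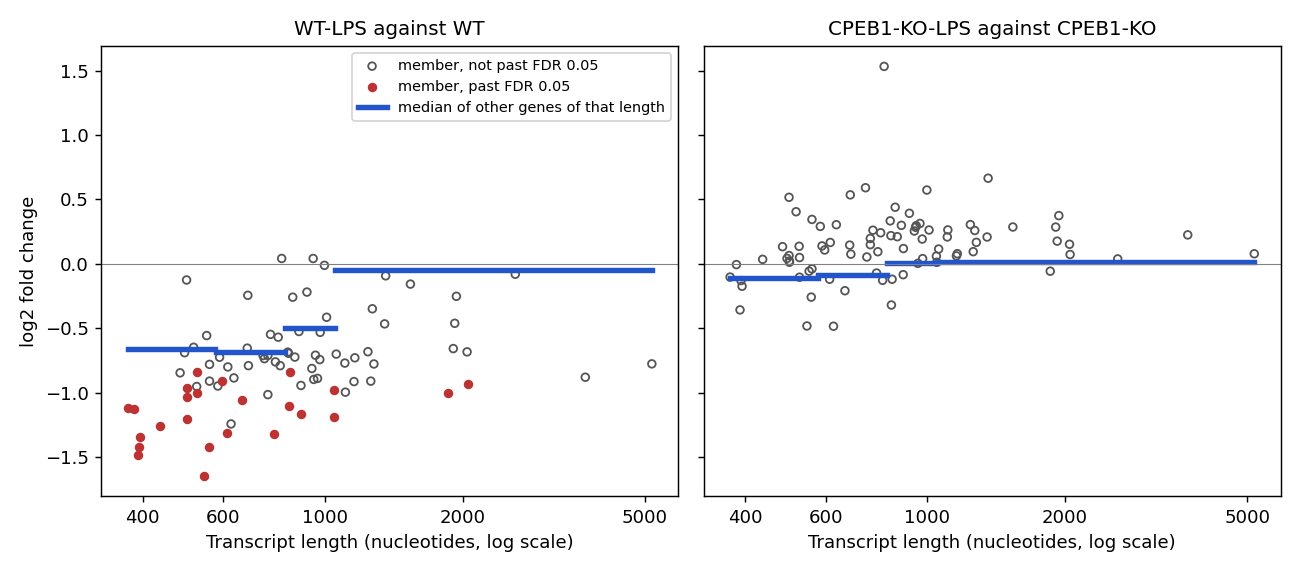
log2 fold change with LPS against transcript length (nucleotides, log axis) for the 84 tested members (points, filled where past FDR 0.05), in wild type (left) and knockout (right). Horizontal lines give the median of the other genes within each length range of 21 members, which on the left is -0.66 for the shortest range and -0.05 for the longest.

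Members with and without the pyrimidine run had close medians. In WT-LPS against WT, the 27 tested members with a run of at least 8 had a median log2 fold change of -0.79 and 6 calls, and the 36 without had -0.76 and 10 calls. The medians were -0.81 and -0.79 in CPEB1-KO against WT. Rps27, whose run is shown above, and Rps28 and Rps21, which have none in the window, were all among the 5 members with the smallest p.

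The members rose and fell together across libraries. Over the 12 libraries, the log2 CPM of a member correlated with the mean of the other members at a median Pearson's r of 0.968, and 64 of 84 members were above 0.9. All members share the depth and scaling of a library, so these values describe and do not test. The lowest were Rps4l (r = -0.10), Rpl22l1 (0.36) and Rpl39l (0.46), followed by Rpl29, Rps19bp1, Rpl7l1, Rps2 and Rplp0 (0.65 to 0.76). Of the 3109 other genes with a mean of at least 50 TPM, the median r with the members' mean was 0.05, and 26 were above 0.9. The closest was Eef1b2 (0.989), a subunit of the factor that recharges the elongation factor eEF1A. Fau (0.986), which encodes the ribosomal protein eS30 fused to a ubiquitin-like sequence, came next. Bcl7c (0.976), Gng5 (0.963), the thymosin gene Tmsb4x (0.959), Tpt1 (0.956), Nsa2 (0.954), Gng10 (0.950) and Capns1 (0.941) were also among the 10 most alike.

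The paralogs Rps27l and Rpl22l1 were set against the genes they copy. Rps27l, a target of p53 in other cells, was at 205, 302 and 245 TPM in WT, 229.6, 409 and 249 in WT-LPS, 214, 188 and 206 in CPEB1-KO and 235, 299 and 271 in CPEB1-KO-LPS. Neither LPS comparison passed (-0.13 ± 0.30, adjusted p = 0.782, in wild type and 0.52 ± 0.30, adjusted p = 0.368, in knockout), although the knockout groups did not overlap. As a percentage of the TPM of Rps27, Rps27l stood at 2.72%, 1.45% and 1.42% in WT and 4.18%, 5.40% and 4.18% in WT-LPS. It stood at 1.72%, 1.93% and 2.30% in CPEB1-KO and 3.42%, 3.77% and 5.22% in CPEB1-KO-LPS. All 6 LPS libraries thus lay above all 6 untreated libraries, WT replicate 1 included, and the genotypes overlapped within each treatment. The ratio was formed after the values were seen and has no test here.

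Rpl22l1, which can take the place of Rpl22 in the ribosome, exceeded it in every library. It was at 733, 632 and 654 TPM in WT, 774, 528 and 458 in WT-LPS, 771, 753 and 828 in CPEB1-KO and 778, 841 and 536 in CPEB1-KO-LPS. As a percentage of Rpl22 it was 383% ± 121 in WT, 470% ± 159 in WT-LPS, 604% ± 48.3 in CPEB1-KO and 558% ± 169 in CPEB1-KO-LPS (SD, n = 3). The ranges overlapped between treatments, and within WT replicate 1 had 515% and the others 277% and 357%. Without LPS the genotypes did not overlap: all CPEB1-KO libraries, at 553% to 649%, lay above all WT libraries. That separation has no test here. The 7 libraries at 515% or more were those with a neuron marker mean of 8.69 log2 CPM or more, and the part of neuron RNA in this ratio was not tested. Rpl22l1 itself was at -0.56 ± 0.20 in WT-LPS against WT (adjusted p = 0.0547; with the block of pairs within wild type, -0.59 and 0.0187) and at -0.13 ± 0.20 in CPEB1-KO against WT (adjusted p = 0.747). Rpl36al, whose protein is nearly the same as that of Rpl36a, fell with its family in WT-LPS against WT and stayed at 50.7% to 52.8% of Rpl36a in the group means.

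**Figure D5:**
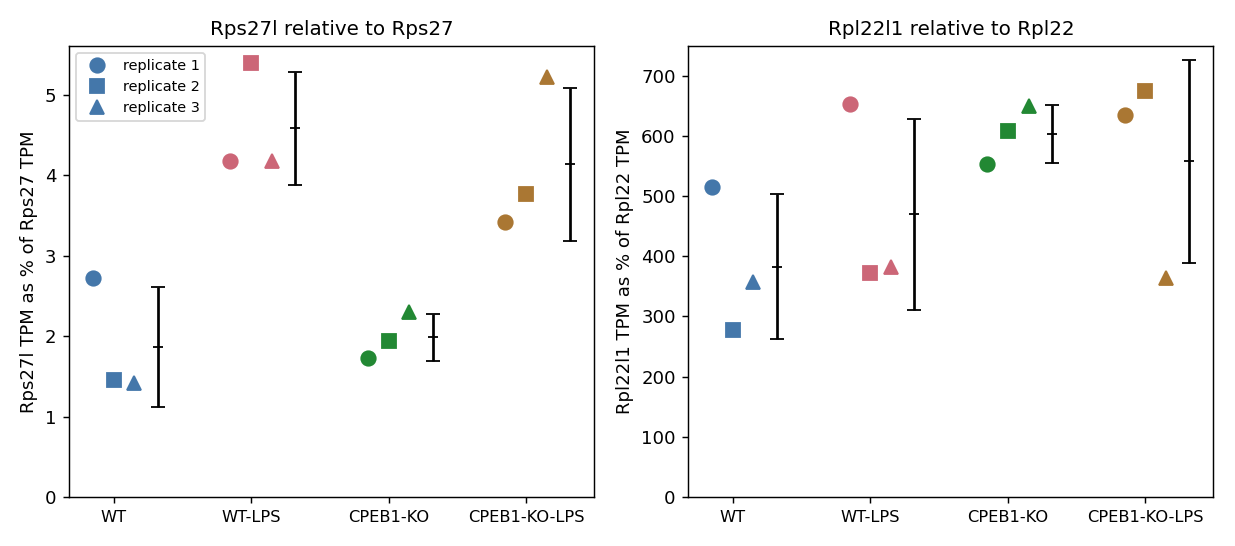
TPM of Rps27l as a percentage of Rps27 (left) and of Rpl22l1 as a percentage of Rpl22 (right), 1 point per library with the mean and SD of each group (n = 3). On the left all LPS libraries, at 3.42% or more, lie above all untreated libraries, at 2.72% or less. On the right the CPEB1-KO libraries, at 553% or more, lie above the WT libraries, at 515% or less, and the other pairs of groups overlap.

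Among genes that build ribosomes, the calls in both genotypes were rises. Of 28 ribosome biogenesis factors, 11 rose and 0 fell in WT-LPS against WT by edgeR's test, with a median log2 fold change of 0.58. Of all genes, 12.4% rose and 14.9% fell in that comparison, and 4.1% rose and 2.12% fell in knockout, the background for every list that follows. Rrs1, needed for assembly of the large subunit, rose by 1.88 ± 0.32 (adjusted p = 0.00144), from 21.2, 11.5 and 7.33 TPM to 62.8, 61.0 and 62.3. Nip7 rose by 1.09 ± 0.20 (adjusted p = 0.00223) and Tsr1 by 1.07 ± 0.20 (adjusted p = 0.00234). In CPEB1-KO-LPS against CPEB1-KO, 4 of 28 rose and 0 fell, with a median of 0.62. There the nucleolar GTPase Gnl3 was at 27.2, 28.3 and 23.0 TPM without LPS and at 70.5, 73.1 and 70.4 with it (1.49 ± 0.28, adjusted p = 0.00689). The wild-type count was 16 on log2(TPM + 1), 5 without WT-LPS replicate 2 and 0 without WT replicates 2 and 3, where the median of the list was 0.75 and Rrs1 was at 1.46. In knockout DESeq2 called 8, and the count was 1 to 3 when any library of the 2 groups was left out and 2 without WT-LPS replicate 3. In the interaction edgeR and DESeq2 called 0 of the 28, and 2 had an unadjusted p under 0.05.

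Of 17 genes of the mTORC1, LARP1 and MYC list, 5 rose and 2 fell in wild type, and 2 rose in knockout. The 2 falls are a share near that of all genes. Ddit4, an inhibitor of mTORC1, rose by 2.11 ± 0.23 in wild type (adjusted p = 0.000105) and by 1.52 ± 0.23 in knockout (adjusted p = 0.00134). Myc rose by 1.89 ± 0.33 in wild type (adjusted p = 0.00172) and by 1.62 ± 0.32 in knockout (adjusted p = 0.00984). The knockout call of Myc was lost without CPEB1-KO replicate 2 (1.49) or replicate 3 (1.46). Tsc2, which restrains mTORC1, fell by 2.23 ± 0.45 in wild type (adjusted p = 0.00374) and was at -0.24 without WT replicates 2 and 3.

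Of 7 genes of the p53 and MDM2 list, 3 rose in wild type and 1 in knockout. Cdkn1a, the cell-cycle inhibitor p21, was at 14.0 to 16.6 TPM in WT and 315 to 393 in WT-LPS, and rose by 4.16 ± 0.23 (adjusted p = 9.96e-07). In knockout it rose by 3.56 ± 0.22 (adjusted p = 2.36e-06). Of 6 host genes of small nucleolar RNAs, 2 rose in both genotypes. Snhg5 rose by 1.70 ± 0.22 in wild type and 1.16 ± 0.21 in knockout (adjusted p = 0.000324 and 0.0056), and Snhg1 by 1.34 ± 0.27 and 1.52 ± 0.27 (adjusted p = 0.00373 and 0.00467). Without WT replicates 2 and 3, 1 gene rose in wild type in each of the mTORC1, p53 and small nucleolar RNA lists, with medians of 0.37, 0.31 and 0.61 beside 0.38, -0.06 and 0.31 with all libraries.

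Fau, a ribosomal protein gene outside the name rule, fell by 1.21 ± 0.38 in WT-LPS against WT (adjusted p = 0.0314). The call of Fau was lost without WT replicate 2 (-0.77), WT replicate 3 (-1.24), WT-LPS replicate 1 (-1.0) or WT-LPS replicate 3 (-1.14). Of 16 elongation factors and other genes with a known pyrimidine tract, 1 rose and 1 fell in wild type (2 and 2 with the block of pairs), with a median of -0.07, and 0 were called in knockout by edgeR or DESeq2 (3 with an unadjusted p under 0.05). Of 9 genes of ribosome rescue and quality control, 1 rose (Abce1, 0.73 ± 0.18, adjusted p = 0.00872) and 1 fell in wild type (1 and 3 with the block of pairs), and 0 were called in knockout by either tool (2 with an unadjusted p under 0.05). The calls of both lists changed with the libraries: without WT replicate 1, 3 genes of each fell, and without WT replicate 3 none of the first list was called. On log2(TPM + 1) the first list had 6 rises, 0 falls and a median of 0.29, and with length offsets 3, 0 and 0.18. The 77 genes of the mitochondrial ribosome, a separate particle, showed 21 falls and 2 rises in wild type (14.9% and 12.4% of all genes) with a median of -0.27, and 0 calls in knockout by edgeR and 1 by DESeq2 (10 with an unadjusted p under 0.05). Without WT-LPS replicate 3 there were 10 falls and 2 rises, and without WT replicate 2, 15 and 0. Without WT replicates 2 and 3 there were 4 falls, with a median of -0.30. On log2(TPM + 1) the median turned to 0.07, with 5 falls and 7 rises, and with length offsets to 0.01, with 6 and 8. The median over all genes, as given above, moved up as well on log2(TPM + 1). Mrpl24 fell by 1.96 ± 0.30 (adjusted p = 0.000822) and Mrps21 by 1.36 ± 0.23 (adjusted p = 0.00136). In CPEB1-KO against WT, CPEB1-KO-LPS against WT-LPS and the interaction, edgeR's test called 0 of the 161 entries of these 8 lists. DESeq2 called 4, 1 and 3 of them in the same order, and 20, 20 and 26 had an unadjusted p under 0.05. For these lists too, the shares of all genes at that p are not given here.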

How the data were processed

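Poly(A)-selected RNA of 12 microglia preparations, 1 animal each, was sequenced. The authors deposited expected counts per gene, not normalised between libraries, and TPM. Per the submitters' processing notes, cutadapt, RSEM and the build mm10 were used, with no versions named. Names that had become dates (27) were restored from the transcript accessions beside them.

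The deposited expected counts were rounded and fitted with edgeR 4.0.16 in R 4.3.3 (filterByExpr by group, TMM scaling, quasi-likelihood model with 4 group means, 15295 genes, 8 residual degrees of freedom). Tests were two-sided, with Benjamini-Hochberg adjustment over all genes. SE is the absolute log2 fold change divided by the square root of F. The deposited TPM were used for levels and shares, and, as log2(TPM + 1) or log2(TPM + 0.1), with limma 3.58.1; DESeq2 1.42.0 was another alternative. The fit was tested on simulated counts. Lengths came from GENCODE M21 and start windows from RefSeq (GRCm38.p6).

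The members and gene lists were chosen with earlier results of these data known. Genes named are the called members (the 5 smallest p where over 10), 19 fixed members, up to 3 per list and genes most alike the family; 1 gene is not reported here. Groups follow the labels. Deviations of same-numbered libraries from their group means correlated at 0.38, 0.15 and 0.18 between WT and WT-LPS, and at -0.34 to 0.22 between other groups. The 0.15 and 0.18 lie below 0.22, so these values do not settle a pairing, and the labels state none. As an alternative, the numbers were taken to pair libraries within wild type only, a choice made after seeing the data. Other alternatives were other scalings and filters, left-out libraries, a replicate block, length offsets and a neuron-marker covariate.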

Additional observations from a re-analysis of the deposited data

How the results depend on the processing

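The libraries of WT limit every comparison that uses them: 2 of the 3 were the shallowest and had the highest ribosomal protein share. In WT-LPS against WT, where 24 members fell with a median log2 change of -0.79, the count was 6 with only the 2 groups compared, 9 on log2(TPM + 1) and on log2(TPM + 0.1) (both medians -0.37), 1 with length-trend offsets (median -0.14) and 0 without WT replicates 2 and 3 (median -0.05), a setting added after seeing the data, as was the neuron covariate. All genes called lower were 9.44% with only the 2 groups compared, 7.11% and 6.9% on the TPM scales and 11.9% with length-trend offsets. Leaving out 1 library gave counts from 5 to 58 and medians from -1.03 to -0.39, beside 9.17% to 16.8% of all genes called lower. Other scalings, filters and tools gave 19 to 36 calls, and the cause of these differences was not tested.

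In CPEB1-KO against WT, 0 calls became 1 with DESeq2 and 0 to 37 with 1 library left out, and the median of -0.81 became -0.38 on both TPM scales, -0.12 without WT replicates 2 and 3, -0.13 with the neuron covariate and -1.06 to -0.48 with 1 library left out. The interaction, 0 calls and 0.94, became 0.43 on both TPM scales, 0.31 with length offsets, 0.22 without WT replicates 2 and 3 and 0.44 with the neuron covariate, and with 1 library left out 0 to 3 calls and 0.55 to 1.18. With 1 library left out, counts were 0 in CPEB1-KO-LPS against CPEB1-KO and CPEB1-KO-LPS against WT-LPS, with medians from -0.11 to 0.27 and from -0.11 to 0.35, and the TPM shares ranged from 19.1% to 25.8% in WT, 13.6% to 16% in WT-LPS, 15.6% to 16.8% in CPEB1-KO and 15% to 16.3% in CPEB1-KO-LPS. As shares of expected counts, which are not divided by length, the group means were 5.66%, 3.33%, 3.56% and 3.73%.

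The sign of some values turned, and on log2(TPM + 1) the median over all genes in WT-LPS against WT moved up as well. In WT-LPS against WT, Rplp0 was at 0.25 on both TPM scales, 0.28 with length offsets, 0.66 without WT replicates 2 and 3, 0.27 with the neuron covariate and -0.45 to 0.29 with 1 library left out. Rpsa was at 0.13, 0.13, 0.42 and 0.05 (TPM scales, without WT replicates 2 and 3, covariate) and at -0.51 to 0.15 with 1 library left out. Rps27l was at 0.21, 0.21, 0.72, 0.43 and 0.11 (TPM scales, length, without WT replicates 2 and 3, covariate) and at -0.50 to 0.22 with 1 library left out. With length offsets Rpl22l1 was at 0.20 and Rps6 at 0.06, and without WT replicates 2 and 3 Rps6 was at 0.08, Rpl5 at 0.00, Rpl11 at 0.08, Rps19 at 0.10 and Eef1d at 0.09. Between CPEB1-KO and WT, the neuron covariate gave 0.12 for Rplp0 and 0.10 for Rpsa, Rpl22l1 was at 0.22 on both TPM scales and 0.18 with length offsets, and Rps27 at 0.20 without WT replicates 2 and 3. With length offsets Rps27 was at -0.20 in CPEB1-KO-LPS against WT-LPS and Rpl22l1 at -0.17 in the interaction, and without WT replicates 2 and 3 Rps27 was at -0.06 in the interaction.

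In an alternative fit chosen after seeing the data, the replicate numbers were taken to pair libraries in wild type only. The labels state no pairing, and the correlations do not settle it. A replicate block in wild type only gave 56 calls and a median of -0.73 in WT-LPS against WT. The interaction had 0 calls and a median of 0.89 in that fit. A replicate block over all 4 groups gave 21 calls, all among the 24, and a median of -0.76 in WT-LPS against WT, and 0 calls in the other comparisons. The interaction has no fit with only 2 groups.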
